A study of Mus musculus with 18 samples.

Results

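The dual-specificity phosphatases (DUSPs) and the Sprouty proteins are feedback brakes on mitogen-activated protein kinase (MAPK) signalling, and 10 of their genes are described here across resting and LPS-stimulated macrophages. The genes were Dusp1, Dusp2, Dusp4, Dusp5, Dusp6, Dusp8, Dusp10, Dusp16, Spry1 and Spry2, chosen by symbol among the 50600 genes of the count table. All 10 passed the filter on low counts, which 15663 genes passed in all. In the mm10 genome Dusp1 (ENSMUSG00000024190) lies at chr17:26505590-26508519, Dusp2 at chr2:127336159-127338376, Dusp4 at chr8:34807297-34819894, Dusp5 at chr19:53529109-53542431, Dusp6 at chr10:99263231-99267489, Dusp8 at chr7:142079490-142095843, Dusp10 at chr1:184013302-184075636, Dusp16 at chr6:134715468-134792625, Spry1 at chr3:37639947-37644598 and Spry2 at chr14:105891949-105896819. All are protein-coding, and Dusp5, Dusp8, Dusp10, Dusp16 and Spry1 overlap a gene on the opposite strand, from which the stranded counting separated them.

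RNA-seq was carried out on bone marrow-derived macrophages (BMDMs), which are mouse bone marrow cells grown for 8 days in recombinant GM-CSF. There were 6 groups of 3 libraries. WT cells and cells of IRF5 KO mice, which lack the transcription factor IRF5, were each left unstimulated, or stimulated for 2 h with 100 ng/ml LPS after a 1 h pretreatment with the vehicle DMSO or with 3.5 μM defactinib. LPS is a bacterial cell wall component sensed by TLR4, and defactinib inhibits the tyrosine kinases FAK and PYK2. The unstimulated samples carry DMSO in their labels but an untreated mark in the count table. The study's figure legend gives DMSO control or defactinib for 1 h ahead of 0 or 2 h of LPS, as the labels do. The untreated mark is not explained. The design text speaks of biological replicates without saying how cultures relate to animals, so that p-values measure the spread between these libraries. Young adult male C57BL/6J mice are named among the study's animals, but whether they gave this bone marrow, and how the IRF5 allele was made, are not given in the sources used here.

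A DUSP of the MAPK phosphatase type removes phosphate from both the threonine and the tyrosine of an active MAPK and so switches it off. Dusp1, Dusp2, Dusp4 and Dusp5 encode inducible phosphatases of the nucleus, of which the Dusp5 protein acts on ERK. Dusp6 encodes a cytoplasmic phosphatase with a strong preference for ERK, whereas the products of Dusp8, Dusp10 and Dusp16 act mainly on the stress kinases JNK and p38. Sprouty proteins act higher up, where they restrain signalling from receptor tyrosine kinases to Ras and ERK. Many of these genes are themselves switched on by MAPK activity, and in macrophages the Dusp1 protein is known for limiting p38 activity and cytokine production after LPS.

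Between 39282181 and 61949143 read pairs were counted per library. The 9 macrophage markers examined, among them Adgre1, Csf1r and Itgam, were all tested and summed to 11727 to 21622 CPM (read pairs scaled to library size) per library. Lyz2 made up 63.8 to 77.3% of this sum, which therefore mostly follows Lyz2, and Itgax, which dendritic cells also express, was the next highest. The other 8 markers summed to 3799 to 5723 CPM. Marker sums of lymphocytes and fibroblasts did not exceed 1.97 CPM. Of the dendritic cell markers, Ccr7 ranged most widely, from 8.78 to 368 CPM, and Zbtb46 and Dpp4 reached 97.2 and 58.8 CPM. Flt3, Xcr1 and Clec9a did not exceed 2.72, 0.37 and 10.9 CPM. Of the mast cell and basophil markers, Gata2, Hdc and Kit reached 51.5, 42.5 and 20.8 CPM. Cpa3, Mcpt8, Fcer1a and Ms4a2 did not exceed 1.07, 0.48, 0.05 and 0.14 CPM. Irf5 itself was at 614 ± 32.5 CPM in WT and 365 ± 30.8 CPM in IRF5 KO cells at rest (SD, n = 3). It was at 451 ± 21.1 and 404 ± 51.3 CPM after LPS with DMSO (WT minus IRF5 KO, adjusted p = 0.428) and at 276 ± 90.2 and 369 ± 20.2 CPM with LPS and defactinib, where the IRF5 KO mean was the higher (adjusted p = 0.0545). Counts over a whole gene cannot show a deleted exon and so do not check the genotype. IRF5 KO LPS DMSO replicate 3 stood apart. Across tested genes its Pearson r was 0.932 with replicates 1 and 2 of its own group and 0.978 to 0.979 with the unstimulated IRF5 KO libraries, a correlation across genes, which are not independent replicates. Fold changes and calls that rest on it are therefore given with all libraries and also from a fit without it. What set this library apart was not tested.

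Levels of different genes can be compared only per length, and are given here as CPM per kilobase of exon (CPM/kb). In unstimulated WT cells Dusp5 stood highest at 20.98 ± 2.54 CPM/kb (SD, n = 3) and Dusp1 followed at 16.7 ± 2.73 CPM/kb, with overlapping libraries. Dusp6 was at 7.45 ± 0.46 CPM/kb, Dusp16 at 4.999 ± 0.056 CPM/kb and Spry1 at 4.95 ± 1.32 CPM/kb, of which the last pair overlapped. Spry2, Dusp2, Dusp4 and Dusp10 lay between 0.46 and 2.15 CPM/kb on average, and Dusp8 was the lowest at 0.02 ± 0.01 CPM/kb. After LPS with DMSO Dusp5 (30.4 ± 2.52 CPM/kb), Dusp16 (26.3 ± 0.54 CPM/kb) and Dusp1 (22.3 ± 3.94 CPM/kb) led the WT order. Dusp5 was the highest of the 10 in 5 of the 6 groups. The exception was WT LPS defactinib, where Dusp1 led at 12.3 ± 1.97 CPM/kb and Dusp5 was at 5.80 ± 1.70 CPM/kb.

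**Figure D1:**
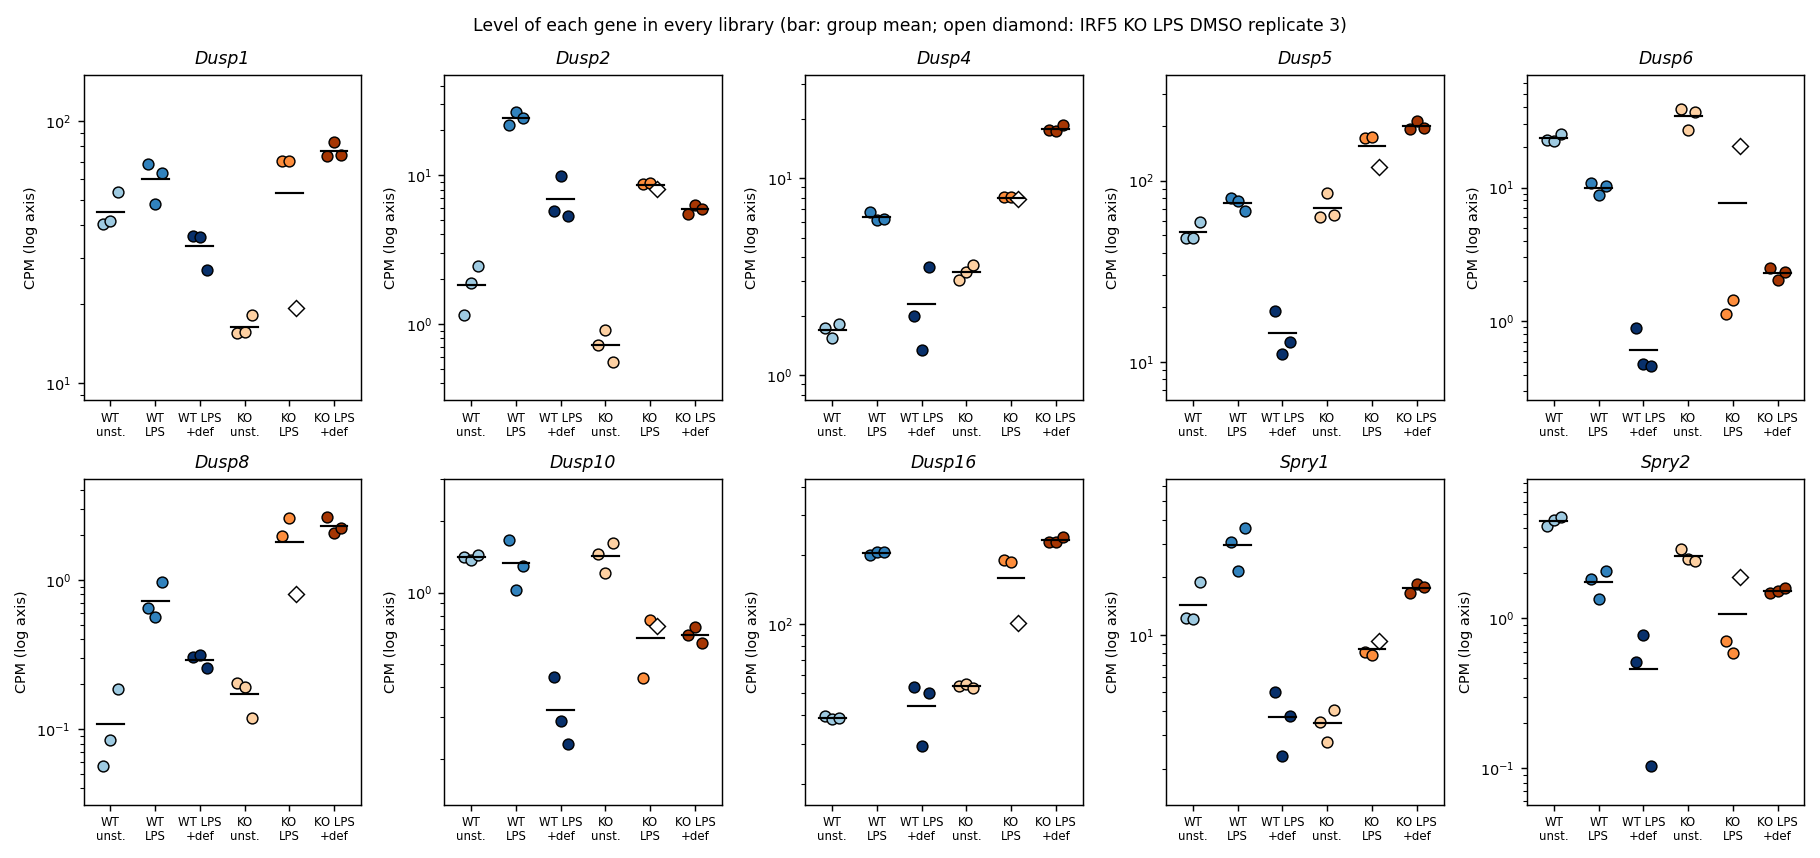
Level of each of the 10 genes in every library, in CPM on a log axis whose range differs between panels, for the 6 groups; circles are libraries, bars are group means and the open diamond is IRF5 KO LPS DMSO replicate 3. In WT cells the defactinib libraries lie below the LPS DMSO libraries in all 10 panels, as for 31.5% of all tested genes, whereas in IRF5 KO cells Dusp1, Dusp4, Dusp5, Dusp16 and Spry1 lie wholly above DMSO and Dusp2 wholly below, as for 14.1% and 12.5% of all tested genes.

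The upstream sequences of the genes were searched for binding motifs, because Dusp1 and Dusp5 are classic early response genes. RefSeq promoter windows (GRCm38.p6, 250 bases before each start) were at hand for 9 of the 10 genes, Dusp4 being the exception. The windows of 4 genes reach into the span over which their reads were counted. Those of Dusp8 and Dusp10 (chr1:184034131-184034380) lie wholly within it. Both strands were searched for the cyclic AMP response element (CRE) TGACGTCA, its half-site TGACG, the AP-1 site TGANTCA, the ETS core CCGGAA, the TATA box TATAAA, the core of the interferon-stimulated response element (GAAA, any 2 bases and GAAA again), and by name the NF-kB site and the CArG box, which serum response factor binds. The sequences shown are those with a full CRE or a CArG box, given 5′ to 3′ on the strand of the gene, with CREs, CRE half-sites and CArG boxes in capitals. The Dusp1 and Dusp5 stretches are the parts of the windows outside the counted gene, at chr17:26508520-26508722 (minus strand) and chr19:53528895-53529108 (plus strand). The Dusp8 stretches are the surroundings of its CREs, at chr7:142095373-142095402 and chr7:142095329-142095358 (minus strand), within the span over which Dusp8 reads were counted.
Dusp1: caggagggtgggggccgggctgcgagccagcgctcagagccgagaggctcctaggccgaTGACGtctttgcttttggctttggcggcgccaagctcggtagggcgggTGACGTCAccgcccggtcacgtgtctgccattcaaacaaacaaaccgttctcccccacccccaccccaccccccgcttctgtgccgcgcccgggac
Dusp5: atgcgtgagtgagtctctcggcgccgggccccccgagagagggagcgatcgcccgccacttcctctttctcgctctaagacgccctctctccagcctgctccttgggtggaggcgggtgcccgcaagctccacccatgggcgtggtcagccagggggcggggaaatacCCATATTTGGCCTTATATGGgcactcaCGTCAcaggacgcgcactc
Dusp8, upper CRE: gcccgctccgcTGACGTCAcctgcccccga
Dusp8, lower CRE: ttggctgcaggTGACGTCAggggctttttc

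The Dusp1 CRE lies 143 to 136 bases before the RefSeq start. Those of Dusp8 lie 107 to 100 and 63 to 56 bases before it. The Dusp5 window holds CArG boxes next to each other, 82 to 73 and 72 to 63 bases before the start. A full CRE was present in 2 of the 9 windows (Dusp1 and Dusp8) and in 1.55% of all 32851 promoter windows, and a CArG box in 1 of 9 (Dusp5) against 1.47%. The CRE half-site, which is part of every full CRE, was found for Dusp1, Dusp5, Dusp8 and Dusp16 and in 17.8% of all windows. The AP-1 site, ETS core, interferon-stimulated response element, NF-kB site and TATA box were in none of the 9 windows and in 6.75%, 12%, 2.98%, 3.9% and 12.4% of all windows. A match describes letters only, and their absence from a window says nothing about the factor.

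LPS against unstimulated WT cells asks how the feedback genes respond to TLR4 stimulation. Dusp2, Dusp4, Dusp8, Dusp16 and Spry1 rose, between 2.05-fold (Spry1) and 13.2-fold (Dusp2), while Spry2 fell. Dusp1, Dusp5, Dusp6 and Dusp10 did not pass both thresholds, which were a Benjamini-Hochberg adjusted p below 0.05 in edgeR's quasi-likelihood test and a fold change above 2. The count of 5 higher and 1 lower of 10 compares with 11.6% higher and 9.71% lower over all tested genes (8.27% and 18.1% with library size alone as scaling). The median log2 fold change of the 10 was 0.78, against -0.00454 for all tested genes. Marker sums of other cell types moved between the same groups, and their part in the results was not tested. The dendritic cell sum went from 110 to 120 CPM to 374 to 485 CPM with 2 of 5 tested markers higher, the neutrophil sum from 51.9 to 71.7 CPM to 111 to 214 CPM with 5 of 6 higher, and the mast cell and basophil sum from 10.7 to 11.6 CPM to 45.3 to 58.0 CPM with 2 of 5 higher.

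Among the nuclear phosphatases, Dusp2 was at 1.14, 1.89 and 2.43 CPM in unstimulated WT libraries and at 21.6, 26.4 and 24.2 CPM after LPS, groups that lay far apart. Its log2 fold change was 3.72 (SE, the standard error of the fit, 0.28, adjusted p = 6.95e-08). Dusp4 went from 1.74, 1.56 and 1.84 CPM to 6.79, 6.17 and 6.25 CPM, again without overlap, and rose by 1.90 on the log2 scale (SE 0.24, adjusted p = 1.03e-05). Dusp5 was at 48.2, 48.4 and 59.1 CPM unstimulated and at 80.4, 76.9 and 68.2 CPM with LPS. These libraries did not overlap, but the log2 fold change of 0.53 (SE 0.19, adjusted p = 0.0309) was under the fold threshold. Between these groups 31.8% of all tested genes lay wholly higher and 32.9% wholly lower with LPS, so that a lack of overlap was common. Dusp1, which is often described as LPS-induced, was already at 40.4, 41.4 and 53.7 CPM at rest and at 68.4, 48.1 and 63.6 CPM after 2 h of LPS. Its groups overlapped, with a log2 fold change of 0.41 (SE 0.33, adjusted p = 0.344). Without IRF5 KO LPS DMSO replicate 3, which enters here only through the spread shared across groups, the SE was 0.14 and the adjusted p 0.0202. The change of Dusp1 was still under the fold threshold.

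Dusp6, the cytoplasmic ERK phosphatase, was at 22.5, 22.5 and 25.01 CPM at rest and at 10.9, 8.85 and 10.2 CPM with LPS. Each LPS library was below each resting one, as for 32.9% of all tested genes. The log2 fold change was -1.22 with all libraries in the fit (SE 0.70, adjusted p = 0.183). The fit shares its estimate of spread across groups, and without IRF5 KO LPS DMSO replicate 3 the SE of Dusp6 was 0.16 and its adjusted p 4.55e-06, so that it passed both thresholds.

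Among the JNK and p38 phosphatases, Dusp16 was at 39.5, 38.6 and 38.8 CPM at rest and at 200.03, 207 and 207 CPM with LPS. It rose by 2.39 on the log2 scale (SE 0.22, adjusted p = 4.64e-07), with little spread in either group. Dusp8 rose by 2.73 (SE 0.48, adjusted p = 0.000244) from a very low level, 0.06, 0.08 and 0.19 CPM, to 0.65, 0.56 and 0.97 CPM. The resting values rest on 3, 5 and 9 read pairs. Dusp10 was at 1.40, 1.37 and 1.44 CPM and then at 1.67, 1.02 and 1.30 CPM, with groups that overlapped and a log2 fold change of -0.08 (SE 0.26, adjusted p = 0.843). The Sprouty genes moved apart. Spry1 was at 12.2, 12.1 and 18.8 CPM and then at 30.5, 21.5 and 36.4 CPM, and rose by 1.03 (SE 0.25, adjusted p = 0.00324). Spry2 went from 4.16, 4.57 and 4.74 CPM to 1.83, 1.36 and 2.06 CPM and fell by 1.36 on the log2 scale (SE 0.44, adjusted p = 0.0193). In the fit without IRF5 KO LPS DMSO replicate 3 its SE was 0.29 and its adjusted p 0.000764. Spry1 fell under the fold threshold without WT LPS DMSO replicate 3 (log2 fold change 0.85) or WT unstimulated replicate 1 (0.93) or 2 (0.92) or with library size alone as scaling (0.66), and Spry2 lost its call without WT LPS DMSO replicate 1 (adjusted p = 0.0511) or 2 (adjusted p = 0.0799).

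In IRF5 KO cells all 10 genes passed both thresholds after LPS, with 7 higher (Dusp1, Dusp2, Dusp4, Dusp5, Dusp8, Dusp16 and Spry1) and 3 lower (Dusp6, Dusp10 and Spry2). Over all tested genes 7.07% were higher and 6.28% lower (5.75% and 10.8% by library size alone), and 26.2% in either direction without replicate 3, where the same count of 7 and 3 was obtained. In a fit of only these 2 groups 5 passed, all of them higher, against 1.05% higher and 0.0353% lower of all genes tested there, and Dusp1, Dusp5, Dusp6, Dusp10 and Spry2 did not (adjusted p = 0.0602 to 0.215), so that no fall was called. The neutrophil marker sum went from 63.4 to 74.3 CPM at rest to 139 to 161 CPM with 3 of 6 tested markers higher, the dendritic cell sum from 122 to 167 CPM to 209 to 274 CPM with none of 5 called, and the mast cell and basophil sum from 49.1 to 57.4 CPM to 49.4 to 101 CPM with 1 of 5 higher. Their part in the results was not tested. Dusp1 rose here by 1.69 on the log2 scale (SE 0.34, adjusted p = 0.0029), from 15.5, 15.7 and 18.2 CPM to 70.2, 70.4 and 19.4 CPM. The first pair of LPS libraries was far above the resting ones and the third was close to them. Without it Dusp1 rose by 2.09 (adjusted p = 6.12e-09).

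Dusp6 showed the widest gap between libraries of this group. It was at 38.8, 26.7 and 36.7 CPM at rest and at 1.14, 1.43 and 20.4 CPM with LPS, replicate 3 being the high value. Dusp6 fell by 2.14 on the log2 scale in the fit of all libraries (SE 0.72, adjusted p = 0.031) and by 4.73 when replicate 3 was left out (SE 0.23, adjusted p = 4.54e-11). Dusp2 rose by 3.56 (SE 0.29, adjusted p = 9.74e-07), from 0.72, 0.90 and 0.55 CPM to 8.77, 8.85 and 8.12 CPM, and here replicate 3 was level with the others (3.60 without it). Dusp4 also had even libraries, 3.04, 3.35 and 3.66 CPM and then 8.07, 8.06 and 7.89 CPM, and rose by 1.26 (SE 0.23, adjusted p = 0.0018; 1.27 without replicate 3). Dusp5 rose by 1.12 (adjusted p = 0.0011; 1.28 without replicate 3), from 63.3, 85.2 and 64.4 CPM to 171, 174 and 119 CPM.

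Dusp16 went from 53.4, 54.6 and 52.7 CPM to 191, 187 and 101 CPM and rose by 1.58 on the log2 scale (adjusted p = 0.000197). Dusp8 rose by 3.35 (adjusted p = 0.000173), from 0.20, 0.19 and 0.12 CPM to 1.99, 2.60 and 0.80 CPM. For both genes replicate 3 lay nearest to the resting libraries, and without it they rose by 1.82 and 3.71. Dusp10 fell by 1.14 on the log2 scale (adjusted p = 0.00667), or by 1.25 without replicate 3, from 1.45, 1.21 and 1.61 CPM to 0.44, 0.77 and 0.72 CPM. Spry1 rose by 1.29 (adjusted p = 0.00284), or by 1.22 without replicate 3, from 3.52, 2.75 and 4.05 CPM to 8.14, 7.87 and 9.28 CPM. Spry2 fell by 1.27 on the log2 scale (adjusted p = 0.0348), from 2.91, 2.50 and 2.40 CPM to 0.70, 0.58 and 1.90 CPM, and fell by 2.01 without replicate 3. Calls were lost for Dusp6 without LPS DMSO replicate 1 or 2 or unstimulated replicate 1 or 3 of IRF5 KO (adjusted p = 0.0716 to 0.102), for Dusp10 without LPS DMSO replicate 1 (log2 fold change -0.92), and for Spry2 without LPS DMSO replicate 1 or 2 or any unstimulated library of IRF5 KO (adjusted p = 0.0655 to 0.145).

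**Figure D2:**
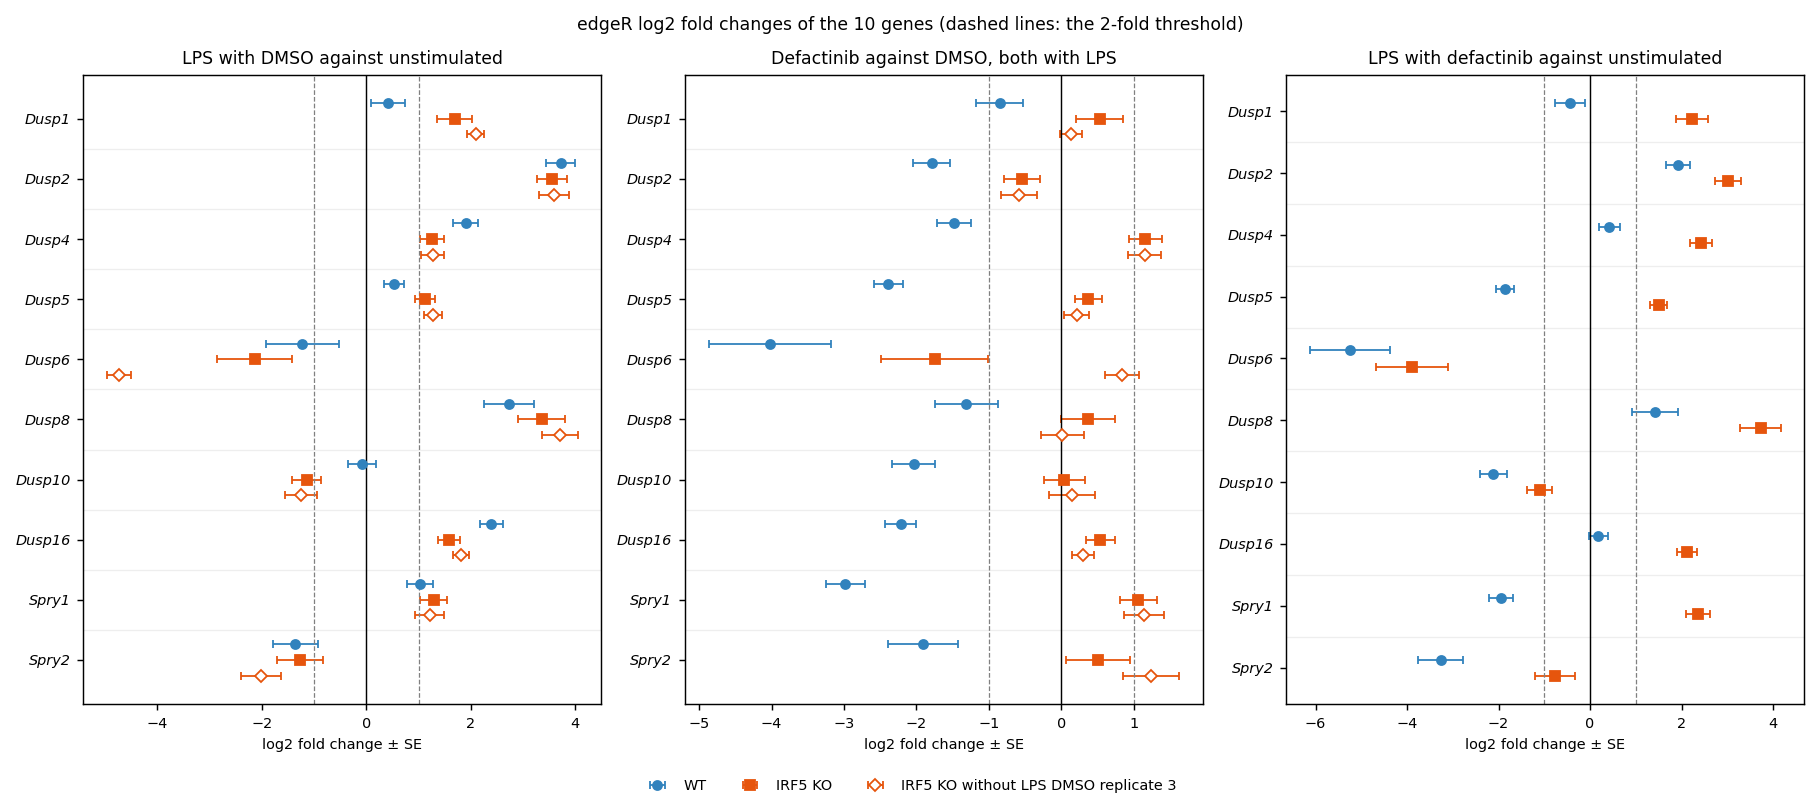
Log2 fold changes from edgeR with standard errors for the 10 genes in WT (circles) and IRF5 KO (squares; open diamonds without IRF5 KO LPS DMSO replicate 3), for LPS with DMSO against unstimulated, defactinib against DMSO with LPS, and LPS with defactinib against unstimulated; dashed lines mark a 2-fold change. In the middle panel the WT values run from -4.02 to -0.85 and the IRF5 KO values from -1.75 to 1.16, or from -0.58 to 1.24 without IRF5 KO LPS DMSO replicate 3.

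The difference of the LPS responses themselves was tested as an interaction, WT minus IRF5 KO. None of the 10 genes passed, against 6.33% positive and 3.49% negative of all tested genes (4.17% and 5.15% by library size alone). In edgeR 4 had an unadjusted p below 0.05 (Dusp1, Dusp5, Dusp10 and Dusp16), against 32.9% of all tested genes, and DESeq2 called 2 (Dusp1 and Dusp10), against 12.6% of the genes to which it gave an adjusted p. With all libraries Dusp6 was at 0.92 (SE 0.98, adjusted p = 0.533), Dusp10 at 1.07 (adjusted p = 0.0647) and Dusp1 at -1.28 (adjusted p = 0.0692). Without replicate 3 the interaction passed for these 3 genes, against 23.6% of all tested genes, with values of 3.51 for Dusp6 (adjusted p = 2.08e-08), 1.17 for Dusp10 (adjusted p = 0.0221) and -1.68 for Dusp1 (adjusted p = 4.97e-06). This count is near the share of all tested genes. In that fit the log2 fold changes with LPS in WT and IRF5 KO cells were -1.23 and -4.73 for Dusp6, -0.08 and -1.25 for Dusp10, and 0.41 and 2.09 for Dusp1. Dusp10 and Dusp1 did not pass in WT cells.

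Defactinib against DMSO, both with LPS, asks what inhibition of FAK and PYK2 does to the stimulated cells. In WT cells each of the 10 genes was lower with defactinib in all 3 libraries than in any DMSO library, as were 31.5% of all tested genes. Of the 10, 9 fell past both thresholds, and the remaining gene, Dusp1, had a log2 fold change of -0.85 (SE 0.33, adjusted p = 0.0381). The background was 18.6% lower and 10.4% higher of all tested genes, or 15.5% and 15% by library size alone. The median log2 fold change of the 10 was -1.97, against 0.09 over all tested genes, so that their share of lower genes was well above that of the table as a whole. The comparison uses the same WT LPS DMSO libraries as the LPS comparison, so that the values of these comparisons are not independent.

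Dusp6 went furthest down of the 10. It was at 0.88, 0.48 and 0.46 CPM with defactinib, from 38, 20 and 18 read pairs. Dusp6 fell 16.2-fold from the LPS DMSO libraries (log2 fold change -4.02, SE 0.85, adjusted p = 0.00101), with an SE of 0.21 in the fit that left out IRF5 KO LPS DMSO replicate 3. Dusp5 was at 19.1, 11.04 and 12.9 CPM, a 5.24-fold fall (log2 fold change -2.39, SE 0.20, adjusted p = 1.7e-07). Both genes were thereby also under their resting WT level in every library, as were 32.3% of all tested genes. Of the other nuclear phosphatases, Dusp2 fell by 1.79 on the log2 scale (SE 0.25, adjusted p = 2.98e-05) to 5.72, 9.79 and 5.32 CPM, and Dusp4 by 1.48 (SE 0.23, adjusted p = 8.26e-05) to 2.00, 1.35 and 3.55 CPM. Dusp1 was at 36.6, 36.2 and 27.2 CPM.

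Dusp16, which LPS had raised, was back at 52.9, 29.3 and 50.1 CPM with defactinib, a 4.65-fold fall (log2 fold change -2.22, SE 0.22, adjusted p = 8.23e-07). Dusp10, whose WT libraries with and without LPS overlapped, fell by 2.04 on the log2 scale (SE 0.29, adjusted p = 3.61e-05) to 0.44, 0.29 and 0.23 CPM. Dusp8 fell by 1.31 (SE 0.43, adjusted p = 0.0177) to 0.30, 0.31 and 0.26 CPM, or 13, 13 and 10 read pairs. Spry1, the Ras and ERK antagonist, fell 7.91-fold to 5.05, 2.33 and 3.78 CPM (log2 fold change -2.98, SE 0.27, adjusted p = 4.05e-07). Spry2 fell by 1.91 on the log2 scale (SE 0.48, adjusted p = 0.00339) to 0.51, 0.77 and 0.10 CPM, the last from 4 read pairs. Only Dusp8 lost its call when a library was left out, replicate 3 of WT LPS DMSO (adjusted p = 0.0808) or of WT LPS defactinib (adjusted p = 0.0502).

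Other measures moved between the same WT groups. The log2 fold change was -0.62 (adjusted p = 2.44e-05) for Ptk2b, which encodes PYK2, 0.48 (adjusted p = 0.0129) for Ptk2, which encodes FAK, and -0.71 (adjusted p = 0.00182) for Irf5. The summed level of the 6 dendritic cell markers was 374 to 485 CPM with DMSO and 62.8 to 123 CPM with defactinib, with 2 of the 5 tested lower and 1 higher. The macrophage sum was 12113 to 12767 CPM and then 13627 to 17394 CPM with 1 of 9 markers higher and 2 lower, and the neutrophil sum 111 to 214 CPM and then 110 to 147 CPM, with none of 6 tested markers changed. The mast cell and basophil sum was 45.3 to 58.0 CPM and then 9.84 to 34.6 CPM, with 2 of 5 tested markers lower. Fcer1a was at 0 in both groups. The part of these shifts in the results was not tested. In whole-culture RNA, fewer cells of a type and less RNA per cell cannot be told apart.

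In IRF5 KO cells the picture was different. Dusp4 and Spry1 rose with defactinib, and no gene of the 10 fell past both thresholds, against 0.16% higher and 0.76% lower of all tested genes (0.0766% and 1.26% by library size alone). Dusp4 was at 17.6, 17.4 and 18.7 CPM, above all 3 DMSO libraries as were 14.1% of all tested genes (log2 fold change 1.16, SE 0.22, adjusted p = 0.0172). Spry1 was at 16.6, 18.5 and 17.8 CPM (log2 fold change 1.06, SE 0.25, adjusted p = 0.0362). Without DMSO replicate 3 the values were 1.15 for Dusp4 (adjusted p = 0.00617) and 1.14 for Spry1 (adjusted p = 0.0205), and 1.45% of all tested genes were called. In a fit of only these 2 groups Spry1 did not pass (adjusted p = 0.062). The macrophage marker sum was 11727 to 14893 CPM with DMSO and 20657 to 21622 CPM with defactinib, with none of 9 markers called, and 1 of 5 tested dendritic cell markers was higher, the part of which in the results was not tested. Dusp4 lost its call without any of the IRF5 KO LPS defactinib libraries (adjusted p = 0.0544 to 0.0863). Spry1 lost it without any of these (adjusted p = 0.102 to 0.127), without unstimulated replicate 1 or 3 of IRF5 KO or 1 or 2 of WT (adjusted p = 0.0519 to 0.0552), or without WT LPS DMSO replicate 1 (adjusted p = 0.0512).

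The remaining 8 genes did not pass in IRF5 KO cells. Dusp1 was at 73.4, 83.5 and 74.3 CPM with defactinib, Dusp5 at 192, 214 and 196 CPM and Dusp16 at 229, 228 and 241 CPM. These libraries lay above all the DMSO libraries of their genotype, as they did for 14.1% of all tested genes, with log2 fold changes of 0.53, 0.37 and 0.54 (adjusted p = 0.34, 0.239 and 0.133). Without DMSO replicate 3 the log2 fold changes were smaller, at 0.13, 0.21 and 0.30 (adjusted p = 0.654, 0.5 and 0.266). Dusp2 was the single gene of the 10 that lay below all the DMSO libraries, as did 12.5% of all tested genes. It was at 5.44, 6.34 and 5.87 CPM (log2 fold change -0.55, adjusted p = 0.2, or -0.58 and 0.175 without DMSO replicate 3). Dusp8 (2.65, 2.06 and 2.23 CPM), Dusp10 (0.66, 0.72 and 0.61 CPM) and Spry2 (1.48, 1.52 and 1.59 CPM) overlapped with the DMSO libraries. For Spry2 only DMSO replicate 3 (1.90 CPM) made the overlap. Its log2 fold change was 0.51 with all libraries (adjusted p = 0.524) and 1.24 without DMSO replicate 3 (adjusted p = 0.0579). The values of Dusp8 were 0.37 and 0.02, and those of Dusp10 0.05 and 0.15 (adjusted p = 0.578 to 0.98). Dusp6 was at 2.51, 2.04 and 2.34 CPM, and its direction and call depended on the DMSO libraries. The log2 fold change was -1.75 with all libraries (adjusted p = 0.17) and 0.84 without DMSO replicate 3 (adjusted p = 0.0354), under the fold threshold. Without DMSO replicate 1 or 2 it passed as lower, at -2.27 (adjusted p = 0.0355) and -2.25 (adjusted p = 0.0455).

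Tested as an interaction, the defactinib response differed between WT and IRF5 KO cells for 9 of the 10 genes, each of them more negative in WT. In all, 12.3% of tested genes had a negative and 10.5% a positive interaction past both thresholds, or 8.17% and 18.2% by library size alone. The largest difference was that of Spry1, -4.05 on the log2 scale (SE 0.37, adjusted p = 9.54e-07), followed by Dusp5 (-2.76, SE 0.27, adjusted p = 1.91e-06), Dusp16 (-2.76, SE 0.30, adjusted p = 4.7e-06) and Dusp4 (-2.64, SE 0.32, adjusted p = 1.68e-05). Spry2 (-2.42), Dusp10 (-2.08), Dusp8 (-1.68), Dusp1 (-1.38) and Dusp2 (-1.25) also passed (adjusted p = 0.000954 to 0.0303). The interaction of Dusp6 was -2.27 (SE 1.10, adjusted p = 0.118). Without DMSO replicate 3 the count was again 9, against 31.6% of all tested genes, but not of the same genes: Dusp6 passed at -4.86 (adjusted p = 1.15e-09), Dusp1 at -0.98 was under the fold threshold, and Spry2 was at -3.15. In that fit Spry1 was at -4.12, Dusp4 at -2.64, Dusp5 at -2.60, Dusp16 at -2.52, Dusp10 at -2.19, Dusp8 at -1.33 and Dusp2 at -1.21. Dusp1 also lost its call without replicate 1 or 3 of WT LPS DMSO, replicate 3 of WT LPS defactinib or IRF5 KO LPS defactinib replicate 2 or 3 (adjusted p = 0.0511 to 0.0686), and Dusp8 without replicate 3 of WT LPS DMSO, any WT LPS defactinib library or IRF5 KO LPS defactinib replicate 1 or 3 (adjusted p = 0.0503 to 0.089).

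**Figure D3:**
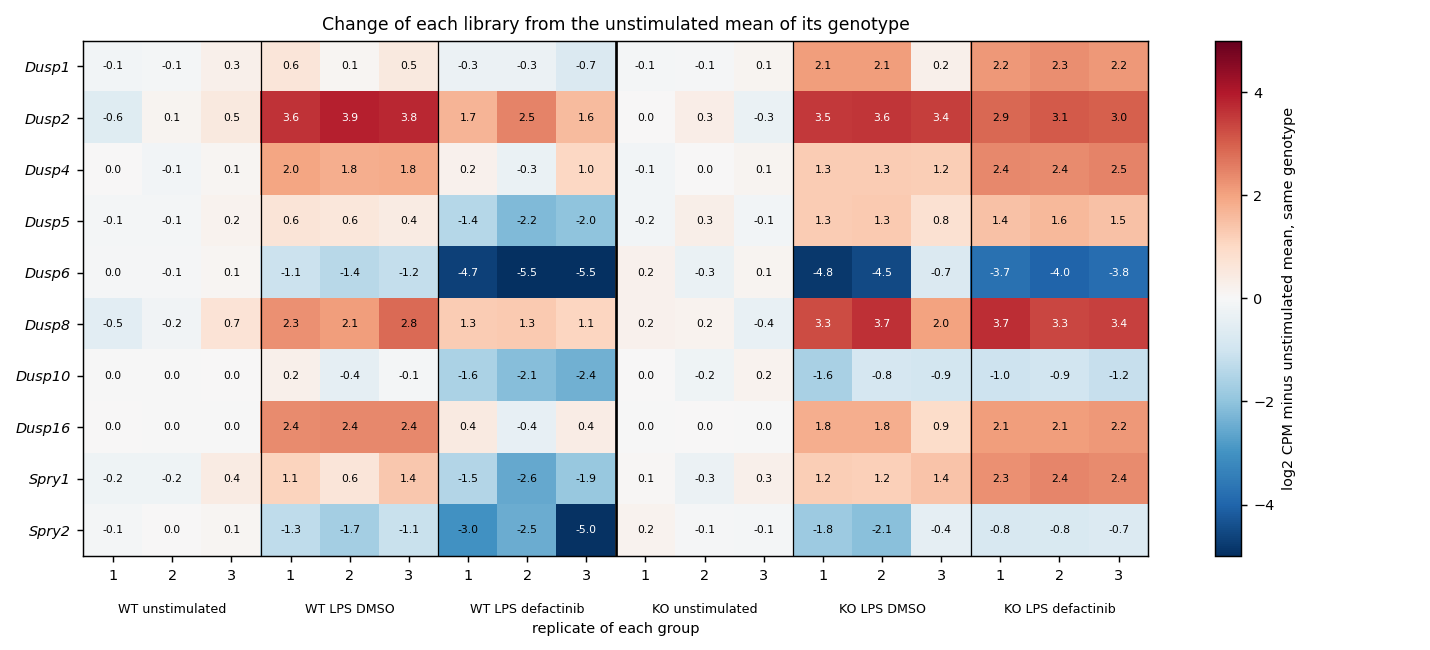
Change of each of the 10 genes in each library from the mean of the unstimulated libraries of its genotype, as a difference of log2 CPM (colour and printed value). Dusp6 and Spry2 are below rest in every LPS library of both genotypes, and column 3 of KO LPS DMSO is visibly nearer to rest than its neighbours for Dusp1, Dusp5, Dusp6, Dusp8, Dusp16 and Spry2.

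LPS with defactinib was also set against unstimulated cells, which shows where the combination left each gene. In WT cells 2 of 10 were higher than at rest (Dusp2 and Dusp8) and 5 lower (Dusp5, Dusp6, Dusp10, Spry1 and Spry2), against 9.1% and 15.8% of all tested genes. The neutrophil sum went from 51.9 to 71.7 CPM to 110 to 147 CPM with 3 of 6 tested markers higher, and 2 of 5 dendritic cell markers were higher and 1 lower. The mast cell and basophil sum went from 10.7 to 11.6 CPM to 9.84 to 34.6 CPM with 1 of 5 markers higher and 1 lower, and the macrophage sum from 12190 to 12414 CPM to 13627 to 17394 CPM with 1 of 9 higher, and their part was not tested. Dusp6 ended 38.0-fold under its resting level (log2 fold change -5.25, adjusted p = 0.000245) and Spry2 9.61-fold (-3.26, adjusted p = 8.24e-05). Spry1 (-1.95), Dusp5 (-1.85) and Dusp10 (-2.12) were also lower (adjusted p = 3.93e-06 to 4.45e-05). The log2 fold changes of Dusp16, Dusp4 and Dusp1 were 0.18, 0.42 and -0.44 (adjusted p = 0.489, 0.144 and 0.271). In the fit without IRF5 KO LPS DMSO replicate 3 the adjusted p of Dusp1 was 0.0114, with a change still under the fold threshold. Dusp2 remained above rest at 1.93 (adjusted p = 3.93e-05). Dusp8, at 1.42 (adjusted p = 0.0272), lost its call without WT LPS defactinib replicate 1 or 2 or WT unstimulated replicate 1 or 2 (adjusted p = 0.0536 to 0.106).

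The same comparison in IRF5 KO cells, which does not involve the library that stood apart except through the shared spread, had 7 genes higher and 2 lower, against 7.85% and 16.2% of all tested genes (5.22% and 23.9% by library size alone). Dusp8 (log2 fold change 3.73), Dusp2 (3.02), Dusp4 (2.42), Spry1 (2.36), Dusp1 (2.23), Dusp16 (2.12) and Dusp5 (1.499) rose, each with an adjusted p of at most 0.000172. Between these groups the macrophage sum went from 12140 to 16643 CPM to 20657 to 21622 CPM with 1 of 9 markers higher and 1 lower, the dendritic cell sum from 122 to 167 CPM to 267 to 278 CPM with 2 of 5 higher, and the neutrophil sum from 63.4 to 74.3 CPM to 137 to 161 CPM with 2 of 6 higher, and their part was not tested. Dusp6 fell 14.8-fold (adjusted p = 0.000988) and Dusp10 2.14-fold (adjusted p = 0.0034). Spry2 did not pass at -0.77 (adjusted p = 0.148), although its libraries lay below those at rest, as for 36.9% of all tested genes.

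An interaction of genotype with LPS and defactinib together, chosen after the data had been seen, gave 7 negative values past both thresholds, against 5.43% negative and 2.8% positive of all tested genes (4.07% and 4.85% by library size alone). These were Spry1 (-4.31, adjusted p = 1.15e-06), Dusp5 (-3.35), Dusp1 (-2.67), Spry2 (-2.50), Dusp8 (-2.30), Dusp4 (-1.997) and Dusp16 (-1.94). Dusp6 (-1.36), Dusp2 (-1.09) and Dusp10 (-1.02) did not pass. Dusp6 (adjusted p = 0.00124) and Dusp2 (adjusted p = 0.0355) passed without IRF5 KO LPS DMSO replicate 3, Dusp2 also without WT LPS defactinib replicate 2 (adjusted p = 0.0105) or WT unstimulated replicate 1 (adjusted p = 0.0194), with the replicate number as a block (adjusted p = 0.0411) and in DESeq2 (adjusted p = 0.0323), and Dusp10 without WT LPS defactinib replicate 1 (adjusted p = 0.0425). Dusp8 lost its call without WT unstimulated replicate 2 or 3, WT LPS defactinib replicate 1 or 3, or replicate 2 or 3 of unstimulated and 1 or 3 of LPS defactinib IRF5 KO (adjusted p = 0.0504 to 0.159).

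WT against IRF5 KO cells, given as WT minus IRF5 KO, asks how the genes depend on genotype within a treatment. At rest 3 genes were higher in WT, namely Spry1 (4.18-fold, log2 fold change 2.06, SE 0.26, adjusted p = 4.83e-05), Dusp1 (2.74-fold, log2 fold change 1.46, adjusted p = 0.00711) and Dusp2 (2.51-fold, log2 fold change 1.33, adjusted p = 0.00373), against 3.8% higher and 3.51% lower of all tested genes. Every WT library of these genes was above every IRF5 KO library, as for 24.8% of all tested genes. The mast cell and basophil marker sum also differed between these groups, at 10.7 to 11.6 CPM in WT and 49.1 to 57.4 CPM in IRF5 KO, with 2 of 5 tested markers lower in WT. Of the other markers, 1 of 5 dendritic cell, 1 of 6 neutrophil and 1 of 9 macrophage markers were lower in WT, and the part of these in the results was not tested. Dusp4 was lower in WT at -0.97 (SE 0.23, adjusted p = 0.0095), just under the fold threshold, which it passed without IRF5 KO unstimulated replicate 1 (-1.03) or WT unstimulated replicate 3 (-1.02). The other 6 genes lay between -0.68 and 0.78 and did not pass.

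After LPS with DMSO, Spry1 (log2 fold change 1.804, adjusted p = 4.16e-05), Dusp2 (1.49, adjusted p = 0.000188) and Dusp10 (1.05, adjusted p = 0.00532) were higher in WT, and Dusp5 (-1.04, adjusted p = 0.000336) and Dusp8 (-1.30, adjusted p = 0.0121) lower, against 14% and 11.8% of all tested genes (10.4% and 16.8% by library size alone). Without IRF5 KO LPS DMSO replicate 3 there were 5 higher and 2 lower, against 34.5% of all tested genes, since Dusp6 (2.96, adjusted p = 5.46e-09) and Spry2 (1.44, adjusted p = 0.00363) joined. With all libraries Dusp6 was at 0.37 and Spry2 at 0.70 (adjusted p = 0.677 and 0.2). The values of the other 5 without replicate 3 were 1.88 for Spry1, 1.45 for Dusp2, 1.15 for Dusp10, -1.20 for Dusp5 and -1.66 for Dusp8, and in a fit of only these 2 groups Dusp10 and Dusp8 did not pass (adjusted p = 0.0637 and 0.0741). The dendritic cell sum was 374 to 485 CPM in WT and 209 to 274 CPM in IRF5 KO with 1 of 5 markers higher and 1 lower in WT, and 1 neutrophil and 1 mast cell and basophil marker were lower in WT, none of which was tested for a part in the results. Dusp1 had a value of 0.17 with all libraries and -0.23 without replicate 3 (adjusted p = 0.677 and 0.203). Dusp5 fell under the fold threshold without IRF5 KO LPS DMSO replicate 1 (-0.97) or 2 (-0.96) or WT LPS DMSO replicate 3 (-0.99), Dusp10 without replicate 1 of either group (0.82 and 0.84), and Dusp8 lost its call without IRF5 KO LPS DMSO replicate 2 (adjusted p = 0.0721).

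With defactinib and LPS none of the 10 was higher in WT past both thresholds and 8 were lower, against 8.45% and 8.87% of all tested genes. Spry1 and Dusp10 had been higher in WT with DMSO, whereas Dusp5 and Dusp8 had already been lower. The dendritic cell sum was 62.8 to 123 CPM in WT and 267 to 278 CPM in IRF5 KO (1 of 5 markers higher and 2 lower in WT), the macrophage sum 13627 to 17394 and 20657 to 21622 CPM (2 of 9 lower) and the mast cell and basophil sum 9.84 to 34.6 and 50.8 to 55.4 CPM (1 of 5 lower), and their part was not tested. The widest gap was that of Dusp5, 13.98-fold lower in WT (log2 fold change -3.81, SE 0.21, adjusted p = 2.81e-09). Dusp8 (-2.98), Dusp4 (-2.97), Dusp16 (-2.40), Spry1 (-2.24), Spry2 (-1.72), Dusp1 (-1.21) and Dusp10 (-1.04) were also lower (adjusted p = 1.74e-07 to 0.0128). Dusp6 was at -1.90 (adjusted p = 0.0907) and passed without IRF5 KO LPS DMSO replicate 1 (adjusted p = 0.0391) or 3 (adjusted p = 2.21e-06). Dusp2 had overlapping libraries and a value of 0.24 (SE 0.25, adjusted p = 0.481), and without WT LPS defactinib replicate 2 it was at -0.09. Dusp10 fell under the fold threshold without IRF5 KO LPS defactinib replicate 2 (-0.97) or WT LPS defactinib replicate 2 (-0.96) or 3 (-0.84).

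Ordered by their mean, the groups of Dusp1, Dusp4, Dusp5, Dusp8 and Dusp16 were highest in IRF5 KO LPS defactinib, those of Dusp2 and Spry1 in WT LPS DMSO, those of Dusp6 and Dusp10 in IRF5 KO unstimulated, and that of Spry2 in WT unstimulated. The lead was clear of the next group for Dusp1, Dusp2, Dusp4, Dusp5, Dusp6, Dusp16, Spry1 and Spry2, and overlapped with it for Dusp8 and Dusp10. Without IRF5 KO LPS DMSO replicate 3 the highest group of each gene and these overlaps were the same. WT LPS defactinib was the lowest group for Dusp5, Dusp6, Dusp10 and Spry2, of which it overlapped with the next group for Dusp10 and Spry2.

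Across the 18 libraries the genes fell into looser and tighter company, described by Pearson's r of log2 CPM. Dusp4 and Dusp16 (r = 0.92), Dusp4 and Dusp8 (r = 0.88) and Dusp8 and Dusp16 (r = 0.88) ran together, and so did Dusp6, Dusp10 and Spry2 (r = 0.85 to 0.91). Without IRF5 KO LPS DMSO replicate 3 these values were 0.93, 0.88, 0.88 and 0.86 to 0.94. The tested gene most like each, among genes whose log2 CPM averaged 3 or more, was Amd1 for Dusp6 (r = 0.99), Tab2 for Dusp16 (r = 0.99), Zfp280b for Dusp5 (r = 0.98), Polr1c for Dusp8 (r = 0.96), Tollip for Spry1 (r = 0.96), Ube2e3 for Dusp2 (r = 0.96), Asb7 for Dusp10 (r = 0.95), Taf7 for Dusp4 (r = 0.94), Borcs6 for Spry2 (r = 0.94) and Noct for Dusp1 (r = 0.93). For the same pairs r was 0.94 to 0.99 over the 17 libraries without IRF5 KO LPS DMSO replicate 3. The order changed there among the 3 genes most like a member. Plscr1 (r = 0.993) passed Tab2 (r = 0.986) for Dusp16, Sf1 (r = 0.972) passed Polr1c (r = 0.969) for Dusp8, and Prmt6 (r = 0.967) passed Asb7 (r = 0.956) for Dusp10. These values reflect 6 group means and 1 library that stood apart more than 18 independent points.

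The other genes of the MAPK pathway were counted from lists for defactinib in WT cells, to be read against the 10.4% higher and 18.6% lower of all tested genes. No difference between lists was tested. Of 11 other DUSP genes tested, 1 was higher (Dusp19) and 2 lower (Dusp14 and Dusp7), with a median log2 fold change of -0.06. The highest of them in level, Dusp3 and Dusp11, had values of 0.15 (adjusted p = 0.385) and -0.56 (adjusted p = 0.00136). Of the other Sprouty and Spred genes, Spred1 and Spry4 fell and Spred3 rose among 4 tested. Spred1, a membrane inhibitor of Ras signalling, went from 394.8 ± 18.7 CPM (SD, n = 3) to 108.7 ± 22.4 CPM (log2 fold change -1.86, adjusted p = 5.39e-05), whereas Spred2 was at 0.20 (adjusted p = 0.363).

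None of 9 MAP kinases passed, with values of 0.55 for Mapk3 (ERK; adjusted p = 0.00315) and -0.25 for Mapk14 (p38; adjusted p = 0.163). Among 7 MAP kinase kinases 1 was higher (Map2k6) and 1 lower (Map2k4), and Map2k3 and Map2k1, the highest in level, were at -0.44 and -0.62 (adjusted p = 0.00354 and 0.000214). Among 12 upstream kinases Map3k4 rose, and Map3k5, Map3k8 and Map3k11 fell, the last by 1.77 on the log2 scale (adjusted p = 0.00417). Map3k8 encodes the kinase that carries the LPS signal to ERK. Among 10 MAPK-activated kinases Mknk1 rose, and Mapkapk2 and Rps6ka2 fell. Mapkapk2, the p38 effector kinase, had risen with LPS (log2 fold change 1.41, adjusted p = 8.98e-09) and fell with defactinib (-1.09, SE 0.08, adjusted p = 8.95e-08). Rps6ka4 was at 0.02 (adjusted p = 0.844).

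Of the 12 ERK-induced genes 6 rose with defactinib in WT cells (Egr1, Fos, Fosb, Ier2, Ier3 and Phlda1) and 2 fell (Egr3 and Fosl1), with a median log2 fold change of 1.04. Phlda1 went from 42.4 ± 9.62 to 366.1 ± 91.4 CPM (SD, n = 3), a log2 fold change of 3.11 (SE 0.62, adjusted p = 0.000676), and Ier3 rose by 1.38 (adjusted p = 0.00466). Of the 3 genes of the TTP family, which encode mRNA-destabilising proteins, Zfp36 rose by 2.08 (adjusted p = 0.0015) and Zfp36l2 fell, while Zfp36l1 was at 0.03 (adjusted p = 0.875). Of 9 other feedback and scaffold genes 4 fell (Dok1, Errfi1, Il17rd and Rasa1), and Pea15a and Dok2, the highest in level, were at 0.36 and 0.98 (adjusted p = 0.0162 and 1.29e-05). In IRF5 KO cells defactinib changed 2 genes of these lists, Map3k14, which fell, and Errfi1, which rose, against 0.16% higher and 0.76% lower of all tested genes. Without IRF5 KO LPS DMSO replicate 3 neither passed, and 1 other DUSP gene was higher, against 1.45% of all tested genes in either direction.

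**Figure D4:**
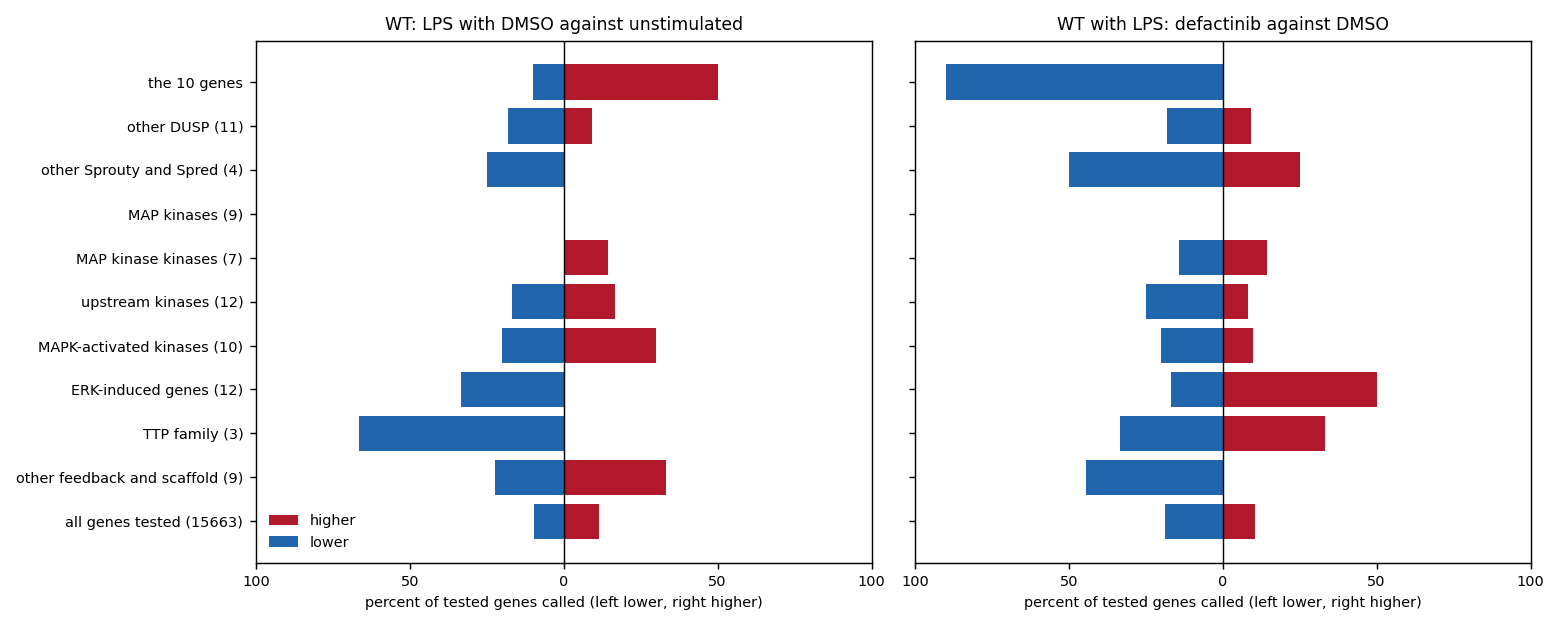
Percent of the tested genes of each list that passed both thresholds, higher (red, to the right) or lower (blue, to the left), for LPS with DMSO against unstimulated and for defactinib against DMSO in WT cells; the number of tested genes stands behind each name. With defactinib 9 of the 10 feedback genes are lower and none higher, whereas 6 of the 12 ERK-induced genes are higher and 2 lower.

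With LPS and DMSO, where 11.6% of all tested genes were higher and 9.71% lower in WT cells and 7.07% and 6.28% in IRF5 KO cells, 4 of the 12 ERK-induced genes fell (Egr2, Etv5, Fosl1 and Myc) and none rose in WT cells, while in IRF5 KO cells 6 rose (Egr1, Fos, Fosb, Ier2, Ier3 and Phlda1) and 2 fell (Etv5 and Myc), or 6 and 4 without replicate 3. The interaction of genotype with LPS passed for 7 of the 12, all more positive in IRF5 KO cells, and for 8 without replicate 3, against 3.49% of all tested genes in that direction and 7.02% without replicate 3. In WT cells the 11 other DUSP genes had 1 higher (Dusp14) and 2 lower (Dusp7 and Dusp18), the same numbers as in IRF5 KO cells. Map2k1, the kinase directly above ERK, rose with LPS in WT cells by 1.22 (adjusted p = 4.56e-07).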

How the data were processed

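RNA-seq of 18 mouse BMDM libraries was used, in 6 groups of 3 set by the labels. According to the methods and the file header, the authors aligned reads to mm10 with STAR and counted uniquely mapped read pairs per Ensembl gene with featureCounts 1.6.3, reverse stranded. The deposited values are raw counts, without normalisation. No other annotated gene on the same strand overlapped the counted span of the 10 genes.

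The counts were analysed with edgeR 4.0.16 in R 4.3.3: TMM normalisation, filterByExpr, a robust quasi-likelihood model with a mean for each of the 6 groups, and two-sided F tests whose p-values were adjusted after Benjamini and Hochberg across all 15663 tested genes. A gene passed at an adjusted p below 0.05 and a log2 fold change beyond 1. Standard errors are the log2 fold change divided by the square root of F. CPM use TMM-scaled library sizes, and correlations use log2 CPM with a prior count of 2. Named were the 10 genes, the first of the 3 genes most like each in pattern, Irf5, Ptk2b, Ptk2 and, from the lists, the 2 genes of each with the highest level per length plus those called. Genes shown only as called in a list were named after their values were seen. A gene of the upstream kinase list is not reported here. The authors' study used DESeq2, which was run here (version 1.42.0) as an alternative.

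The 10 genes and the gene lists were chosen with earlier results of these data known. Depth was 39282181 to 61949143 read pairs per library, and low counts are given beside the values they limit. The results were recomputed without the filter, with scaling by DESeq2's size factors or by library size alone, in DESeq2, with a replicate block, in a fit of only the groups compared, without a fold threshold and with each library left out.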

Additional observations from a re-analysis of the deposited data

Results flagged for a closer look

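Responses that differed between WT and IRF5 KO cells by the test of the difference itself are listed here, as WT minus IRF5 KO on the log2 scale. For defactinib against DMSO with LPS they were -1.38 for Dusp1, -1.25 for Dusp2, -2.64 for Dusp4, -2.76 for Dusp5, -1.68 for Dusp8, -2.08 for Dusp10, -2.76 for Dusp16, -4.05 for Spry1 and -2.42 for Spry2. Without IRF5 KO LPS DMSO replicate 3 Dusp1 was under the fold threshold at -0.98, and Dusp6 passed at -4.86 (adjusted p = 1.15e-09). Some of these calls were also lost without other single libraries, as given above. For LPS with defactinib against unstimulated, a comparison chosen after the data had been seen, they were -2.67 for Dusp1, -1.997 for Dusp4, -3.35 for Dusp5, -2.30 for Dusp8, -1.94 for Dusp16, -4.31 for Spry1 and -2.50 for Spry2. No test of single outlying values was run in the groups of 3 libraries.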

How the results depend on the processing

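The alternatives gave 2987 values of a gene in a comparison, of which 2860 kept their direction and their side of the thresholds, 79 lost and 31 gained a call, and 17 changed sign. DESeq2 gave no adjusted p for Dusp6, and 1 value could not be had from a fit of only the groups compared. In that fit 5 of the 10 genes passed for LPS in IRF5 KO cells, 1 for defactinib in IRF5 KO cells and 3 for genotype after LPS, against 1.08%, 0.0635% and 19.5% of all genes tested there. By library size alone, which shifted the median of all genes by -0.38 for LPS in WT cells, 0.20 for defactinib in WT cells and 0.33 for the interaction with defactinib, 1 passed for defactinib in IRF5 KO cells (1.34% of all tested genes) and 1 for the interaction with LPS (9.32%), for which DESeq2 called 2 (12.6%). Calls lost by library size alone were Spry1 for LPS in WT cells (0.66) and for defactinib in IRF5 KO cells (0.93), Dusp5 for LPS in IRF5 KO cells (0.87), Dusp10 for genotype after LPS with DMSO (0.79) and with defactinib (-0.96), and Dusp2 for the interaction with defactinib (-0.92). Without the filter Dusp6 for LPS in IRF5 KO cells (adjusted p = 0.0879) and Dusp1 for the interaction with defactinib (adjusted p = 0.051) did not pass, and in a fit of only the groups compared neither did the latter (adjusted p = 0.0635) nor Dusp10 for genotype with defactinib (adjusted p = 0.0531). Replicate numbers were not taken as pairs, since residuals of libraries with the same number had a median correlation of 0.00455 over 45 pairs, 4 of them above 0.1. The replicate block moved 1 call, that of Dusp2 in the added interaction (-1.11, adjusted p = 0.0411), and gave 9 genes for defactinib in WT cells.

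With each library left out in turn, the count of genes passing ranged from 5 to 7 for LPS in WT cells and 7 to 10 in IRF5 KO cells, from 6 to 7 and 9 to 9 for LPS with defactinib, from 8 to 9 and 0 to 3 for defactinib, from 3 to 4, 3 to 7 and 7 to 9 for genotype unstimulated, with LPS DMSO and with LPS defactinib, and from 0 to 3, 7 to 9 and 6 to 9 for the interactions with LPS, defactinib and both. The values that changed sign belonged to genes that had not passed, and the cause was not tested. By library size alone they were Dusp16 for LPS with defactinib in WT cells (-0.00552), Dusp10 for defactinib in IRF5 KO cells (-0.0909) and Dusp1 for genotype after LPS (-0.0370). With a library left out, Dusp6 ranged from -2.27 to 0.84 and Dusp10 from -0.18 to 0.17 for defactinib in IRF5 KO cells, Dusp1 from -0.23 to 0.41 and Dusp6 from -0.15 to 2.96 for genotype after LPS, Dusp2 from -0.0883 to 0.42 and Spry2 from -0.39 to 0.66 for the interaction with LPS, Dusp10 from -0.28 to 0.0714 for LPS in WT cells, Dusp4 from -0.0197 to 0.70 for LPS with defactinib in WT cells, Dusp10 from -0.12 to 0.0763 for genotype unstimulated and Dusp2 from -0.0862 to 0.43 for genotype with defactinib. The change of sign of Dusp6 for defactinib, Dusp1 for genotype and the positive end for Spry2 came without IRF5 KO LPS DMSO replicate 3.

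Depth limits Dusp8, Dusp10 and Spry2, with as few as 3, 9 and 4 read pairs in a library.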
